A study of Mus musculus with 24 samples.

Results

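Peaks of Foxa and Flag ChIP-seq were examined at the genes of the 4 factors that were introduced to make induced hepatocyte-like (iHep) cells, namely Foxa1, Foxa2, Foxa3 and Hnf4a. A peak was counted when it overlapped a fixed mm9 window around its gene by at least 1 bp. These windows were chr12:58590000-58700000 for Foxa1, chr2:147820000-147920000 for Foxa2, chr7:19550000-19660000 for Foxa3 and chr2:163290000-163440000 for Hnf4a. Of 26332 peaks in 14 deposited lists, 17 lay in these windows. They fell in 6 lists, and 8 lists held none.

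The iHep cells were made from C57BL/6 mouse embryonic fibroblasts taken 13.5 days post coitum. Line 4a1 was infected with Foxa1 and Hnf4alpha, line 4a2 with Foxa2 and Hnf4alpha, and line 4a3 with Foxa3 and Hnf4alpha, so all 3 lines share Hnf4a (spelled Hnf4alpha in the labels) and differ in the Foxa gene. Hepatocytes came from livers of 10-week-old adult C57BL/6 mice and received no gene. Each line gave 3 libraries with an antibody against its own Foxa protein, Foxa1 for 4a1, Foxa2 for 4a2 and Foxa3 for 4a3. In each line 2 of these have EGS in the title, a term left unexplained in the labels, and 1 has not (called non-EGS below). An antibody against the Flag epitope tag was used in 1 EGS library of line 4a2 and 1 EGS library of line 4a3 (the tagged protein is not named). From hepatocytes, numbered 4 in all 3 titles, there was 1 EGS library with each of the Foxa1, Foxa2 and Foxa3 antibodies. Among the Foxa libraries of iHep cells, the effects of line, introduced gene and antibody cannot be told apart. No library with an Hnf4a antibody was analysed here. A peak list does not separate DNA of an introduced copy from DNA of the chromosomal gene, and the labels used here do not describe the introduced DNA. Lists of transcription factor peaks carry no expression values, so the labelled cell types could not be checked by markers.

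The Foxa proteins are transcription factors with a forkhead domain that can bind DNA in closed chromatin and act early in the formation of liver from endoderm. Hnf4a is a nuclear receptor that maintains the gene expression of hepatocytes. In liver these factors bind near many of the same genes and are known to bind at one another's genes. The question here was which of these loci held a peak in which line.

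The promoters of the 4 genes show what forkhead letters stand at their start sites. All 4 symbols were matched in RefSeq (GRCm38.p6), which lists 1 promoter each for Foxa1 and Foxa3, 3 for Foxa2 and 2 for Hnf4a. Both strands were searched for 4 forkhead words and 2 Hnf4a words. Among 32851 RefSeq promoters of the same length, the forkhead word TGTTTAC was found in 3.65%, the word TGTTTGC in 5.07%, the word TGTTTGT in 6.61% and the word TATTTAC in 3.04%. The Hnf4a word CAAAGTCCA was found in 0.475% and the word CAAAGTTCA in 0.39%. One promoter is printed for each gene (for Foxa2 and Hnf4a the one with a match), 5′ to 3′ on the gene's strand. Capitals mark a matched word on either strand, and no matches overlapped.
Foxa1 (chr12:57546062-57546361, minus strand): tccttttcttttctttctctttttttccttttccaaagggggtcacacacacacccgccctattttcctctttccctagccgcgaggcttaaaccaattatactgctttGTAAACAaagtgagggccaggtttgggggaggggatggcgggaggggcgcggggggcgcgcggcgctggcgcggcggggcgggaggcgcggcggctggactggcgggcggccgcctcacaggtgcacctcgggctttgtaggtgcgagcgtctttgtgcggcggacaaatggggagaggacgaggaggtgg
Foxa2 (chr2:148046920-148047219, minus strand): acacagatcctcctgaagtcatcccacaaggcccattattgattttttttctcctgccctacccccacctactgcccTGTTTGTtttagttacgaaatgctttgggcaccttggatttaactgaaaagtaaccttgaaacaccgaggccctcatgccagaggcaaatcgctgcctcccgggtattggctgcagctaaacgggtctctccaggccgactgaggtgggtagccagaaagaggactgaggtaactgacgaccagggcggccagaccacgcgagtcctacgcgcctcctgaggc
Foxa3 (chr7:19023490-19023789, minus strand): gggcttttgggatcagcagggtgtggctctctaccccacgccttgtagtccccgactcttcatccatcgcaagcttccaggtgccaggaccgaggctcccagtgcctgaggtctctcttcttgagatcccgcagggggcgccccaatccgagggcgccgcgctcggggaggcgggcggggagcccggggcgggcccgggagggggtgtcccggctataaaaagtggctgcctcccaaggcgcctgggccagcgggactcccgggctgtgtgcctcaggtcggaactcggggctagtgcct
Hnf4a (chr2:163546905-163547204, plus strand): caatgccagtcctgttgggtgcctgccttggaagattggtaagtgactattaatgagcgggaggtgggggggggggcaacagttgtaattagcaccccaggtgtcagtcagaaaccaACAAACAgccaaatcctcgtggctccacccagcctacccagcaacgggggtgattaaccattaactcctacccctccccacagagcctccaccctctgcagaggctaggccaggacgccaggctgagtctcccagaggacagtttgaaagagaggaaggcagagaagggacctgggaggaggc
Foxa1 held TGTTTAC on the opposite strand, 141 bases before the start site, Foxa2 held TGTTTGT on its own strand, and this Hnf4a promoter held TGTTTGT on the opposite strand. The other 2 Foxa2 promoters, the Foxa3 promoter and the other Hnf4a promoter held none of these words. The promoters are on GRCm38.p6 and the peaks on mm9, so the position of a peak relative to a start site, exon or intron was not analysed here, and no peak sequence is printed. In RefSeq the protein-coding neighbours are Mipol1 and Ttc6 for Foxa1, Pax1 and Sstr4 for Foxa2, Irf2bp1 and Sympk for Foxa3, and R3hdml and Ttpal for Hnf4a, and a peak in a window may lie nearer to such a neighbour.

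The lists differed in length and in how often a window of the genome held a peak. The longest held 11408 peaks (Foxa2, line 4a2, non-EGS), and the shortest held 46 (Foxa3, line 4a3, EGS replicate 3) and 21 (Flag, line 4a2). When the genome was tiled into 23987 windows of 110 kb, at least 1 peak fell in 29.2% of them in the longest list. In the non-EGS lists of lines 4a1 and 4a3 the share was 11.9% and 8.99%. In the EGS Foxa lists of iHep cells it was 3.5% and 1.81% for line 4a1, 3.68% and 3.92% for line 4a2, and 3.19% and 0.0792% for line 4a3. The Flag lists reached 0.0709% in line 4a2 and 3.26% in line 4a3, and the hepatocyte lists 0.309% (Foxa1 antibody), 0.696% (Foxa2) and 1.51% (Foxa3). The depth of the libraries is unknown, and the absence of a peak says only that none was called.

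**Figure D1:**
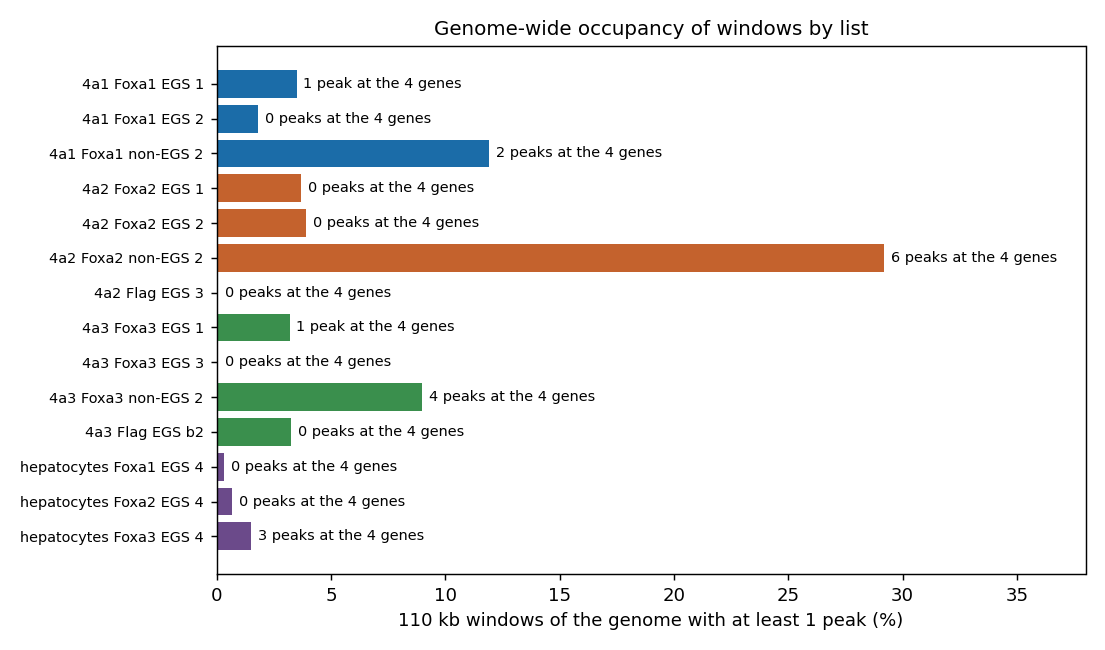
Bars show the percentage of 110 kb windows of the genome with at least 1 peak in each of the 14 lists (names give line or cell type, antibody, EGS or non-EGS, and replicate), with the number of peaks at the 4 introduced genes written beside each bar. The non-EGS list of line 4a2 covers 29.2% of windows and holds 6 of the 17 peaks. Lists below 1% hold none, and some above 1% also hold none, such as EGS replicate 2 of line 4a2 (3.92%).

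The Foxa1 window held no peak in any of the 14 lists. This includes the 3 Foxa1 libraries of line 4a1, which received Foxa1, and the Foxa1 library of hepatocytes. Of all 110 kb windows, 64.2% held no peak in any list, so an empty window was the common case. The peak closest to the window was 10.2 kb below it, at chr12:58579292-58579763, in the non-EGS Foxa2 list of line 4a2. It was 472 bp wide and ranked 3902 of 11408 by the authors' score. In line 4a1 the closest peak was 171 kb away, at chr12:58417476-58418510 in the non-EGS list. That peak was 1035 bp wide and ranked 4 of 3431, near the top of its list. The same site held a peak in the non-EGS Foxa2 list of line 4a2, 1194 bp wide at rank 11 of 11408, and in both EGS lists of that line. A site near the top of both non-EGS lists thus lay outside the window, and nothing was called inside it. In hepatocytes no peak was closer than 2750 kb.

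The Foxa2 window held 2 peaks, both in line 4a2, which received Foxa2. Both came from the non-EGS list. The first lay at chr2:147865751-147866318, was 568 bp wide and ranked 3889 of 11408, with 65.8% of the list scoring lower. The second lay at chr2:147871087-147871666, was 580 bp wide and ranked 1267 of 11408, with 88.9% scoring lower. They stood 4768 bp apart, near the middle of the window, and both were wider than the list's median of 458 bp.

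Neither EGS Foxa2 list of line 4a2 held a peak in the Foxa2 window, nor did its Flag list, any list of lines 4a1 and 4a3, or any hepatocyte list. A peak was thus found in 1 of 3 Foxa lists of line 4a2 and in 0 of 6 lists of the other lines. This difference has an exact permutation p of 0.333 (two-sided, 84 assignments), the smallest that 1 list with a peak allows, so it cannot pass 0.05. The background was high: 27.5% of windows of 100 kb held a peak of this list, 10.3% held at least 2, and 14.7% held a peak in a Foxa list of line 4a2 and in none of lines 4a1 and 4a3. Just outside the window, 61.7 kb below it, the non-EGS lists of lines 4a1 and 4a2 shared a site. It was 800 bp wide at rank 207 of 3431 in line 4a1 and 937 bp wide at rank 152 of 11408 in line 4a2, higher in the 4a2 list than either peak in the window.

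The Foxa3 window held 3 peaks, all in line 4a3, which received Foxa3. In the non-EGS list, a peak at chr7:19599512-19600233 was 722 bp wide and stood in the upper 3.61% of 4317 peaks by score, with 96.4% of the list scoring lower. This was the best place of the 17 peaks in their own lists, and the peak was 4.01 times as wide as the list's median of 180 bp. A second peak of that list, at chr7:19600308-19600452, was 145 bp wide, ranked 830 of 4317 and began 74 bp after the first ended.

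EGS replicate 1 of line 4a3 held the third peak, at chr7:19599927-19600099. It was 173 bp wide and ranked 707 of 1246, with 43.1% of the list scoring lower. All of it lay inside the wider non-EGS peak, with the 2 centres 140.5 bp apart. The site was thus called in 2 libraries of line 4a3, which carry different replicate numbers in their titles. The 3 peaks together spanned 0.941 kb of the 110 kb window.

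EGS replicate 3 of line 4a3, a list of 46 peaks, held no peak in the Foxa3 window, nor did the Flag list of that line. No list of line 4a1, line 4a2 or hepatocytes held one there. The Foxa3 antibody was used in hepatocytes too, but that list held a peak in only 1.51% of 110 kb windows. A peak was found in 2 of 3 Foxa lists of line 4a3 and in 0 of 6 lists of the other lines. The exact permutation p of this difference was 0.0833 (two-sided, 84 assignments). That is the smallest that 2 lists with a peak allow, so it cannot pass 0.05, and the test was chosen after seeing the data. Of all windows of 110 kb, 8.99% held a peak of the non-EGS list of line 4a3, and 3.47% held at least 2. A peak in at least 2 Foxa lists of line 4a3 and in none of lines 4a1 and 4a2 was found in 0.484%. The last 2 counts were set to what the Foxa3 window held. The nearest peak outside the window was 56.7 kb above it, at rank 4435 of 11408 in the non-EGS list of line 4a2. EGS replicate 2 of that line held a 96 bp peak at the same site, at rank 325 of 1040.

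Read over the 3 Foxa windows together, a peak lay in the window of the gene received in 3 of the 9 iHep Foxa lists (33.3%). In the windows of the genes not received, 0 of 9 held one. Genome-wide, these 9 lists held a peak in 0.0792% to 29.2% of 110 kb windows, so an empty window was the common case in each. The 5 peaks in the Foxa windows were all in the receiving line. With windows widened by 50 kb this no longer held, since the peak of line 4a2 found 10.2 kb below the Foxa1 window was then counted, in a line that did not receive Foxa1. This rests on lines 4a2 and 4a3, since line 4a1 had no peak at Foxa1. The windows share lists with very different lengths, and the 3 lists with such a peak are the longest, the second longest and the fourth longest of the 14. Most titles end in a code, mostly written with an R, whose meaning the labels do not give, and it was looked at as a possible batch. Of the 3 lists, the non-EGS list of line 4a3 has no code in its title, so it cannot be compared by code. The non-EGS list of line 4a2 and EGS replicate 1 of line 4a3 share no code with a Foxa list of another line. The 2 codes that hold several lines had no list with a Foxa-window peak. For the lists with a peak and a code, code and line cannot be told apart. The longest list, of line 4a2, held no peak in the Foxa1 or Foxa3 window. No window showed the pattern of a peak in every Foxa list of 1 line and none in the others, which 0.00834%, 0.188% and 0.0208% of 110 kb windows showed for lines 4a1, 4a2 and 4a3.

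**Figure D2:**
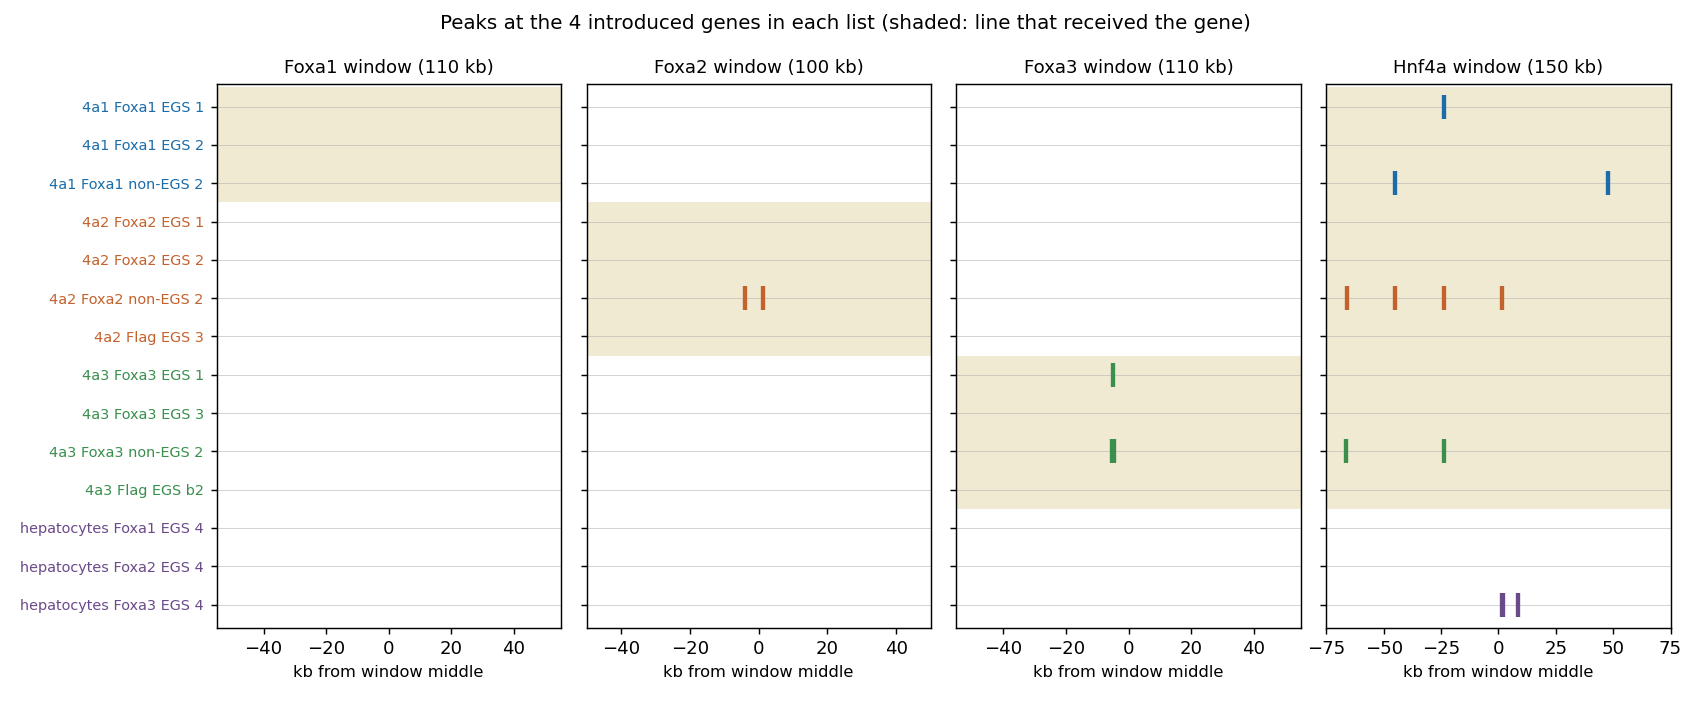
Each tick is the centre of a peak, plotted in kb from the middle of the window, for the Foxa1, Foxa2, Foxa3 and Hnf4a windows, with 1 row per list and shading on the rows of lines that received the gene. The 5 ticks in Foxa windows all lie on shaded rows and the Foxa1 window is empty, while the Hnf4a window has 9 ticks in iHep rows and 3 in a hepatocyte row.

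The Hnf4a window held 12 peaks, 9 in iHep cells, which all received Hnf4a, and 3 in hepatocytes. They merged into 8 regions over 114 kb, of which 3 were found in 2 or more lists. By list, the non-EGS libraries held 2 peaks in line 4a1, 4 in line 4a2 and 2 in line 4a3, EGS replicate 1 of line 4a1 held 1, and the Foxa3 list of hepatocytes held 3. The other 7 iHep lists, both Flag lists among them, and the Foxa1 and Foxa2 lists of hepatocytes held none. The antibodies were against Foxa proteins or Flag, so these are sites of Foxa or Flag peaks at the Hnf4a locus, not of Hnf4a itself.

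The region found in most lists lay at chr2:163341249-163341679 (431 bp), and it was the only one of the 8 with a peak in all 3 iHep lines. In line 4a1 it held a peak of EGS replicate 1, 97 bp wide at rank 862 of 940. In line 4a2 it held a peak of the non-EGS list, 431 bp wide at rank 4436 of 11408. In line 4a3 it held a peak of the non-EGS list, 141 bp wide at rank 2504 of 4317. The 3 peaks nested within each other, with centres 10 to 23 bp apart, so 3 lines with 3 antibodies marked the same stretch. The non-EGS list of line 4a1, longer than its EGS list, held no peak there, and neither did any hepatocyte list.

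A second shared region, at chr2:163319288-163320355, held the widest of the 17 peaks. In the non-EGS list of line 4a2 that peak was 1068 bp wide and ranked 812 of 11408, with 92.8% of the list scoring lower and 99.7% being narrower. In line 4a1 without EGS a peak of 650 bp lay wholly within it, centres 43 bp apart, but ranked 3025 of 3431. The site was thus among the upper 7.12% of the Foxa2 list and at 88.2% of the Foxa1 list by rank. Ranks in lists of different lengths are positions within each list and cannot show whether a site changed between lines.

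The third shared region was the only place in the 4 windows where an iHep peak and a hepatocyte peak overlapped. At chr2:163366288-163366637, a 320 bp peak of the non-EGS list of line 4a2 (rank 10124 of 11408) overlapped a 101 bp peak of the hepatocyte Foxa3 list (rank 579 of 1091) by 71 bp. Both peaks have the least width found in their own lists. The cells and the antibody both differ between these lists.

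The hepatocyte Foxa3 list held a further pair of peaks above this site. One, at chr2:163367037-163367257, was 221 bp wide and ranked 960 of 1091. The other, at chr2:163373542-163373713, was 172 bp wide and ranked 408 of 1091, the best rank of the 3. These 3 peaks lay within 7.43 kb of each other, close to the middle of the window, and the last 2 had no iHep peak on them.

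Of the other single-list regions, 2 stood side by side at the low end of the window. The non-EGS list of line 4a3 had a 127 bp peak at chr2:163298532-163298658 (rank 3066 of 4317), and that of line 4a2 a 352 bp peak at chr2:163298958-163299309 (rank 5570 of 11408), 299 bp further on without overlap. The last region, at chr2:163412566-163412912, was a 347 bp peak of the non-EGS list of line 4a1 at rank 2627 of 3431. Outside the window, 30.4 kb above it, a site was found in both non-EGS lists of lines 4a2 and 4a3 and in 1 EGS list of each (chr2:163470415-163470798).

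**Figure D3:**
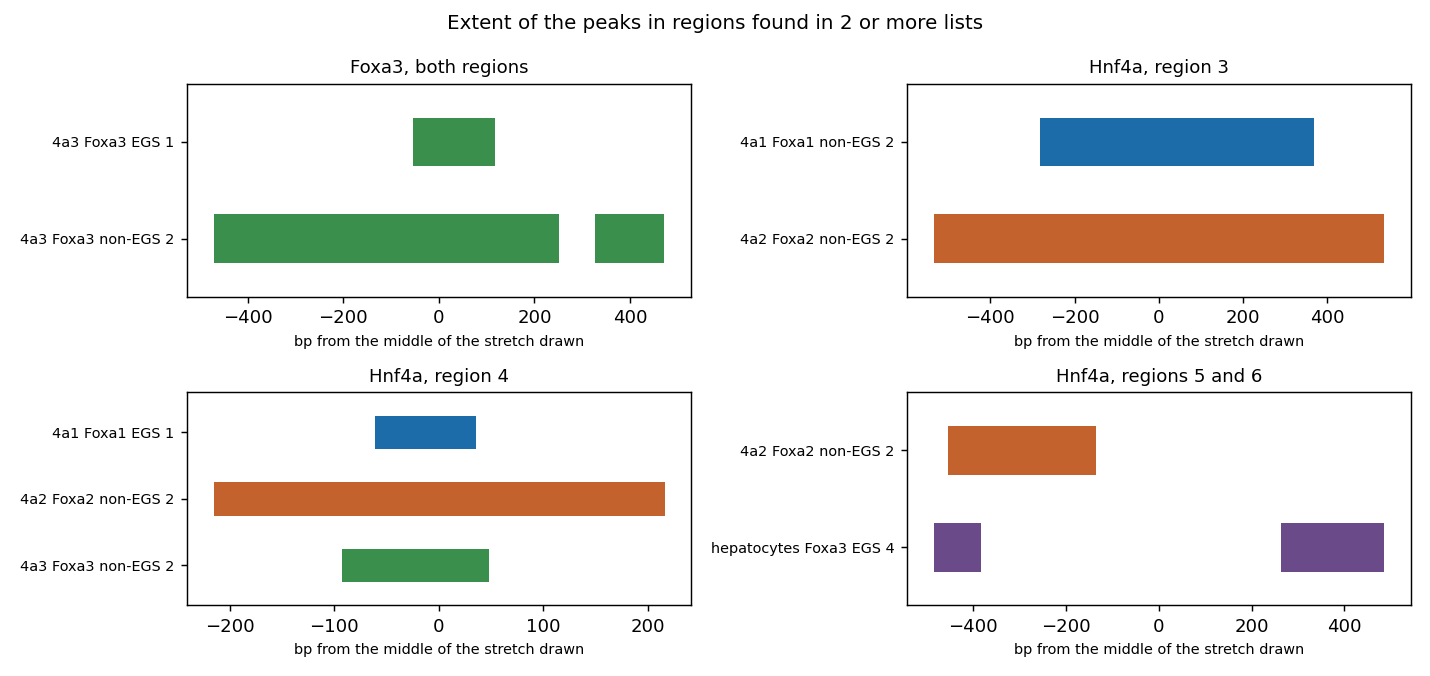
Bars show the extent of each peak in bp from the middle of the stretch drawn, for the Foxa3 regions and for the Hnf4a regions found in 2 or more lists (regions numbered from the low end of the window), with 1 row per list. The EGS peak at Foxa3 lies inside the 722 bp non-EGS peak, the 3 peaks of Hnf4a region 4 are nested, and in region 5 the peaks of line 4a2 and hepatocytes overlap by 71 bp.

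A peak in the Hnf4a window was found in 4 of the 11 iHep lists (36.4%) and in 1 of the 3 hepatocyte lists (33.3%). The difference of 3.03 percentage points gave an exact permutation p of 1 (two-sided, 364 assignments), where the smallest p these lists allow is 0.0275. The hepatocyte lists all carry 1 replicate number, and this p does not show that the cells are alike. With EGS libraries only the order turned round, with 1 of 8 iHep lists and 1 of 3 hepatocyte lists holding a peak. Of the iHep lists, 1 of 8 EGS lists and all 3 non-EGS lists held a peak there, and the non-EGS lists are also the 3 longest of the 14.

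Against the genome, windows of 150 kb held at least 1 peak in 15.6% of cases for line 4a1 without EGS, 35.8% for line 4a2 and 11.5% for line 4a3. The share was 4.68% for EGS replicate 1 of line 4a1 and 2.02% for the hepatocyte Foxa3 list. At least 4 peaks, as in line 4a2 at Hnf4a, fell in 3.35% of windows of that list, and at least 3, as in hepatocytes, in 0.557%. A Foxa peak in all 3 iHep lines was found in 4.74% of windows, and with a hepatocyte peak as well in 0.699%. All 3 non-EGS lists had a peak in 3.36% of windows, and at least 5 lists in 3.9%. The Hnf4a window met each of these counts because they were set to what it held. The shares are a description with no test. A peak in at least 8 iHep lists and in no hepatocyte list was found in 0.292% of 110 kb windows and in none of the 4 gene windows.

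The standing of peaks within their own lists is given by locus, but the loci draw on different lists. At Foxa2 both peaks, and at Foxa3 2 of 3, were in the upper 50% of their list by score. At Hnf4a this held for 3 of 9 iHep peaks and 1 of 3 hepatocyte peaks, and the median share of the list scoring lower was 26.9% for iHep peaks and 39.1% for hepatocyte peaks. The non-EGS list of line 4a2 held peaks at both Foxa2 (65.8% and 88.9% scoring lower) and Hnf4a (10.8%, 51%, 61.1% and 92.8%), with overlapping ranges. In the non-EGS list of line 4a3 the values were 80.6% and 96.4% at Foxa3 and 26.9% and 40.5% at Hnf4a. The 3 Hnf4a peaks of line 4a1 stood low in their lists, with 8.31%, 11.7% and 23.2% of the list scoring lower. No test was made of these ranks, since peaks of a list share their library.

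**Figure D4:**
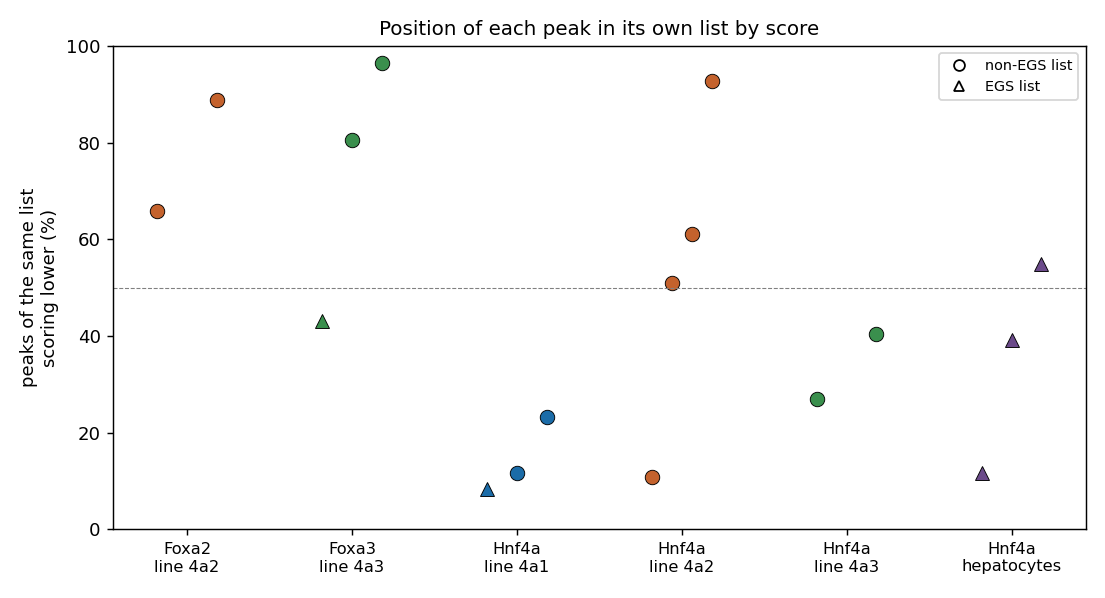
Each point is 1 of the 17 peaks, placed by the percentage of peaks in the same list that score lower (vertical axis) and grouped by gene and by line or hepatocytes, with circles for non-EGS and triangles for EGS lists. Peaks at Foxa2 and the non-EGS peaks at Foxa3 lie at 65.8% or more, while those at Hnf4a in line 4a1 lie at 23.2% or less.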

How the data were processed

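ChIP-seq peak lists of 14 libraries were used, and files of the 10 input libraries were not used here. The submitters' processing notes name BWA 0.6.2, bedtools 2.16.2, MACS2 2.1.0 and build mm9, without settings, control or threshold. Each deposited list gives position, name and a score, on a scale that is not given and that differs in the Flag list of line 4a3 (lowest score 50.0, against just above 5 elsewhere), so scores only ranked peaks within a list. Starts are written 1-based, as 1 more than in the files. Analyses used Python 3.11.15, numpy 2.4.6 and pandas 2.3.3. Genome shares came from windows tiled up to the highest peak end on each chromosome. Every such window was counted, with or without a gene, so the shares are not matched to windows placed around genes. The 110 kb size was planned, as were the patterns of every Foxa list of 1 line and of at least 8 iHep lists. The other patterns of peaks counted in windows were set to what the gene windows held. The 100 kb and 150 kb sizes, the tests of single Foxa windows and the promoter words were chosen after seeing the data. Tests were exact permutations of presence over libraries. The counting of peaks in windows was checked on simulated lists. The tests were checked on simulated presence values, not on lists of such unequal length. The loci and lists were chosen with earlier results of these data known, which bears on every p-value given. The planned test over the 3 Foxa windows is a score combined over chosen loci and is given as a difference with no p. All regions in the windows are named. Replicates are numbers in the titles, and nothing in the labels says that they mark separate cultures or animals, so p-values measure only the spread between these libraries, which may be technical. Alternatives changed the peaks kept, the overlap, the window, the libraries, the measure, the merging distance and the permutation.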

Additional observations from a re-analysis of the deposited data

How the results depend on the processing

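Values below are differences in the share of lists with a peak, or counts. The share of the 9 iHep Foxa lists with a peak at the Foxa gene received, minus that at the genes not received, was 0.333. It was positive under every alternative run. Except with wider windows, the share at genes not received was 0 throughout, so the difference could not turn negative. It was 0.222 with the top-scoring 50% of each list, 0.111 with the top 300 peaks, 0.278 with windows widened by 50 kb, 0.167 with only the EGS libraries, 0.667 with only those without EGS and 0.6 with lists of 1000 or more peaks, an alternative chosen after seeing the data. It ranged from 0.25 to 0.375 when each library was left out, lowest without any one of the 3 lists that hold such a peak. Permuting within replicate numbers (replicate block), or within EGS and non-EGS libraries, leaves the difference at 0.333 by construction. The same number stands in different lines and nothing in the labels ties such libraries together, so the numbers were not taken to pair them.

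The Hnf4a difference of iHep and hepatocyte lists was 0.0303 and had no stable direction. It was -0.242 with the top-scoring 50%, -0.208 with EGS libraries only, -0.182 for the number of peaks and -0.4 with lists of 1000 or more peaks. On the other side, it was 0.212 with windows widened by 50 kb, 0.111 with the 9 iHep Foxa lists only and 0.0797 for log10 of 1 plus covered bp. With the top 300 peaks it was 0. Leaving out each library gave -0.136 to 0.364, and -0.0333 without any one of the 4 iHep lists with a peak, so single lists decide its sign. The cause was not tested. Non-EGS libraries alone hold no hepatocyte list and give no value.

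Lists with a peak at Foxa1, Foxa2, Foxa3 and Hnf4a numbered 0, 1, 2 and 5. With the top-scoring 50% they numbered 0, 1, 1 and 2, with the top 300 peaks 0, 0, 1 and 0, with EGS libraries 0, 0, 1 and 2, and with non-EGS libraries 0, 1, 1 and 3. Merged regions numbered 0, 2, 2 and 8. With the top-scoring 50% there were 4 at Hnf4a, with the top 300 peaks 0 at Foxa2, 1 at Foxa3 and 0 at Hnf4a, and with EGS libraries 0, 1 and 4 at these genes. Widening added 1 list and 1 region at Foxa1, in line 4a2, which did not receive Foxa1, and gave 7 lists and 11 regions at Hnf4a. Merging within 1 kb left 1 region at Foxa3 and 6 at Hnf4a. Leaving out each library gave 0 to 1 list and 0 to 2 regions at Foxa2, all resting on the non-EGS list of line 4a2, and 1 to 2 lists and 1 to 2 regions at Foxa3. Narrower windows, and asking for 50% of a peak in the window, kept every count within 1.5 times. Depth is unknown, so peaks too weak to be called cannot be told from unbound sites.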

Other observations

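Within 200 kb outside the windows, 5 of 14 merged regions were found in 2 or more lists. Below Foxa1, the region chr12:58417359-58418552 held 5 peaks of 4 lists from lines 4a1 and 4a2, at rank 4 of 3431 in line 4a1 without EGS and rank 11 of 11408 in line 4a2 without EGS, and none from line 4a3 or hepatocytes. Above Hnf4a, the region chr2:163470415-163470798 held peaks of 4 lists, 2 each from lines 4a2 and 4a3, at ranks 380 of 1040 (EGS) and 6712 of 11408 (non-EGS) in line 4a2 and 711 of 1246 (EGS) and 2061 of 4317 (non-EGS) in line 4a3. No region within 200 kb of any of the 4 windows held peaks of all 3 iHep lines, and none held a hepatocyte peak. These regions lie outside the windows and were picked after their values were seen, so they are given as values with no test.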
